A study of Mus musculus with 63 samples.

Results

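The miR-23, miR-27 and miR-24 clusters were followed across 4 sorted kidney cell types and 4 stages of injury and repair. Members were chosen by name, as every counted locus of mmu-miR-23a-3p, mmu-miR-23b-3p, mmu-miR-27a-3p, mmu-miR-27a-5p, mmu-miR-27b-3p, mmu-miR-27b-5p and mmu-miR-24-3p. These 7 mature names have 8 loci, because mmu-miR-24-3p was counted at 1 locus in each cluster, out of 2110 loci with 1966 names in all. The miR-3074 loci, which lie on the opposite strand over miR-24, were not taken as members.

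Small RNA was sequenced from cells sorted out of kidney cortex of male C57BL/6 mice aged 8 to 12 weeks, which gave 63 libraries from 16 mice. The populations were CD31+ endothelial cells (ECs), F4/80hi macrophages (Macs), proximal tubular (PT) cells that bind Lotus tetragonolobus lectin (LTL), and PDGFR-β+ stromal cells. Mice had a sham operation, unilateral ureteric obstruction for 2 days (UUO-2) or 7 days (UUO-7), or reversible obstruction (R-UUO), in which the ureter was reimplanted after 7 days and the kidney was taken 2 weeks later. Of 5 mice operated in each group, 4 with levels of Havcr1, the kidney injury molecule-1 gene, nearest the group mean were sequenced, and the authors removed 1 PDGFR-β+ library of the UUO-7 group, which leaves 3 there. Every group therefore holds wild-type animals of 1 strain and sex, and each library is the sorted pool of 1 mouse. Within a cell type p-values measure the spread between these selected mice, which may be smaller than that between unselected ones. The main fits over all 63 libraries had no term for the mouse, so that libraries of 1 mouse count there as separate. In such pools a change in the mix of cells within the gate and a change of RNA per cell cannot be told apart.

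miRNA clusters are transcribed as 1 primary RNA, from which each hairpin is cut, and either arm of a hairpin (5p or 3p) can then be loaded into Argonaute. Bases 2 to 8 of the loaded strand, the seed, pair with target mRNAs and lead to their repression. The miR-23, miR-27 and miR-24 families are encoded by a pair of paralogous clusters, and they are known for roles in angiogenesis, in lipid metabolism and in the activation of myeloid cells.

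The sequences show which of the counted loci a read can tell apart and which mRNAs the paralogs could share as targets. RefSeq (GRCm38.p6) held 6 of the 7 mature names, all but mmu-miR-23b-3p, given here 5′ to 3′ with the seed in capitals.
mmu-miR-23a-3p: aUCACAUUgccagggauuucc
mmu-miR-27a-3p: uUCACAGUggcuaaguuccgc
mmu-miR-27b-3p: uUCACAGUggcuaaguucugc
mmu-miR-27a-5p: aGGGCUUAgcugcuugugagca
mmu-miR-27b-5p: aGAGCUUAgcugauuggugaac
mmu-miR-24-3p: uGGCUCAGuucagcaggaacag
The 3p strands of miR-27a and miR-27b differed at 1 base, C19U (miR-27a base first, counted from the 5′ end), which lies outside the seed, so that they share it. Their 5p strands differed at 8 of 22 bases, and 1 of these, G3A, is in the seed. No other of the 1679 mature names in the RefSeq table has the miR-27-3p seed, and none has that of miR-27a-5p or miR-27b-5p. The miR-24-3p seed is also that of mmu-miR-5124b, mmu-miR-6369, mmu-miR-6410 and mmu-miR-6413, which had 0, 2, 0 and 0 counts over all 63 libraries.

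The hairpins of miR-27a and miR-27b carry both arms counted here, shown in capitals with the 5p arm first.
Mir27a, chr8:84208672-84208758, plus strand: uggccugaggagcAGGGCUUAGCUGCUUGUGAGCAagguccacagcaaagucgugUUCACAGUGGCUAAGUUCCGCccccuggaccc
Mir27b, chr13:63300712-63300784, plus strand: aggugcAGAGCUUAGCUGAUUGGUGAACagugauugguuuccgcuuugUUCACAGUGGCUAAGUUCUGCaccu

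In GRCm38 the chromosome 8 cluster spans 334 bases from miR-23a-3p (chr8:84208563-84208583) through miR-27a-5p (chr8:84208685-84208706) and miR-27a-3p (chr8:84208727-84208747) to miR-24-3p (chr8:84208875-84208896). Each locus lies in the exon of its own miRNA gene (Mir23a, Mir27a and Mir24-2), and no protein-coding gene is annotated over it. The chromosome 13 cluster spans 744 bases from miR-23b-3p (chr13:63300529-63300549) through miR-27b-5p (chr13:63300718-63300739) and miR-27b-3p (chr13:63300760-63300780) to miR-24-3p (chr13:63301251-63301272). It lies on the plus strand inside 2010111I01Rik, in an intron of all 4 of its protein-coding transcripts, while the miR-27b and miR-24-3p loci also fall in an exon of 1 transcript marked for nonsense-mediated decay. Fancc runs over the same interval on the opposite strand, with an intron of 1 transcript there.

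Total counts ranged from 2792366 to 10819385 in ECs, from 1106651 to 6912556 in Macs, from 616565 to 5093294 in PT cells and from 1905053 to 8769219 in PDGFR-β+ cells, and the members took 1.36% to 7.64% of them. A count of 3 corresponds to at most 4.13 CPM (counts scaled to the library total) in any library, in PT cells, so that the low values of miR-27a-5p there lie near the detection limit. Each of the cell type marker loci (miR-126a for ECs, miR-142a and miR-223-3p for Macs, miR-192-5p and miR-194-5p for PT cells, miR-143-3p, miR-145a-5p, miR-199a and miR-214-3p for PDGFR-β+ cells) was highest in its own population. The study calls the stromal population fibroblasts in its sorting scheme, and the gate alone defines it here. Replicate 4 of the PT cells at UUO-7, replicate 1 of the PT cells in R-UUO and replicate 4 of the ECs and of the PDGFR-β+ cells in R-UUO stood apart from their groups for at least 1 member. The calls within a cell type that changed without them, with the largest changes that involve them, are given both ways.

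The mature miR-24-3p is the same from both clusters, and its counts could not be attributed to one of them. The chromosome 13 locus held 3.51% to 7.24% of the reads of both loci, with a median of 4.60% to 4.88% in each of the 4 cell types. Over the 16 group means (cell type by condition) the loci followed each other with r = 1.00, whereas miR-23a-3p and miR-23b-3p had r = 0.42. The miR-24-3p count equalled that of miR-3074-5p on the opposite strand in 61 of 63 libraries at the chromosome 8 locus and in 34 at the chromosome 13 locus. Values of miR-24-3p are therefore given per locus as counted, and no cluster is read from them.

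All cell types were first compared on 1 scale, as CPM with trimmed mean of M values (TMM) scaling over all 63 libraries. A difference was called at a fold over 1.5 and an FDR under 0.05 by edgeR's quasi-likelihood test with Benjamini-Hochberg adjustment over 671 loci. The most abundant member was miR-27b-3p, with 83370 ± 16479 CPM in ECs (SD, n = 16), 50627 ± 16621 in PDGFR-β+ cells (n = 15), 17110 ± 5691 in PT cells (n = 16) and 11852 ± 3118 in Macs (n = 16). Its PT and Mac levels were neighbours that were not called apart (log2 difference Mac minus PT -0.53, 95% CI -0.72 to -0.34), since the fold stayed under 1.5. The same order held for miR-23b-3p, with 2364 ± 459 CPM in ECs, 1095 ± 321 in PDGFR-β+ cells, 819.6 ± 210.4 in PT cells and 300.0 ± 101 in Macs, where PT and PDGFR-β+ cells were not called apart (log2 difference -0.36, 95% CI -0.49 to -0.23). It also held for miR-27b-5p, with means of 129.6, 98.5, 46.6 and 26.4 CPM, of which the first pair was not called apart (log2 difference 0.44, 95% CI 0.24 to 0.63). All 3 of these chromosome 13 members had their lowest mean in Macs under TMM. With scaling by library size only, miR-27b-3p was no longer lower in Macs than in PT cells, miR-27b-5p was lower by less than the fold threshold (log2 -0.37), and miR-23b-3p was no longer lower in PT than in PDGFR-β+ cells.

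The chromosome 8 members had another order, with PT cells at the bottom. miR-27a-3p averaged 3519 ± 808 CPM in ECs, 2122 ± 588 in PDGFR-β+ cells, 1592 ± 641 in Macs and 243 ± 158 in PT cells, and miR-23a-3p averaged 1528 ± 222, 784 ± 209, 662 ± 104 and 198 ± 133 CPM in the same order. Macs and PDGFR-β+ cells were not called apart for miR-23a-3p (log2 difference -0.18, adjusted p = 0.150) or for miR-27a-3p (-0.45). miR-27a-3p was 16.0-fold higher in ECs and 6.79-fold higher in Macs than in PT cells, and miR-23a-3p was 9.15-fold and 3.97-fold higher. With scaling by library size only, both were no longer higher in ECs than in Macs (log2 difference -0.08 for miR-27a-3p and -0.12 for miR-23a-3p) and were higher in Macs than in PDGFR-β+ cells (0.61 and 0.89). The rare strand miR-27a-5p averaged 24.2 CPM in Macs and 21.6 in ECs, which did not differ by the test (log2 difference EC minus Mac -0.08, 95% CI -0.45 to 0.28, adjusted p = 0.728) although scaling by library size only made it -1.40, and 9.83 CPM in PDGFR-β+ cells and 4.04 in PT cells. At the chromosome 8 locus miR-24-3p averaged 1255 CPM in ECs, 722 in PDGFR-β+ cells, 351 in Macs and 201 in PT cells. At the chromosome 13 locus it averaged 64.1, 34.9, 17.2 and 10.3 CPM. With scaling by library size only Macs were no longer below PDGFR-β+ cells at the chromosome 8 locus (log2 0.09, edgeR adjusted p = 0.399) or the chromosome 13 locus (0.15, adjusted p = 0.275).

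**Figure D1:**
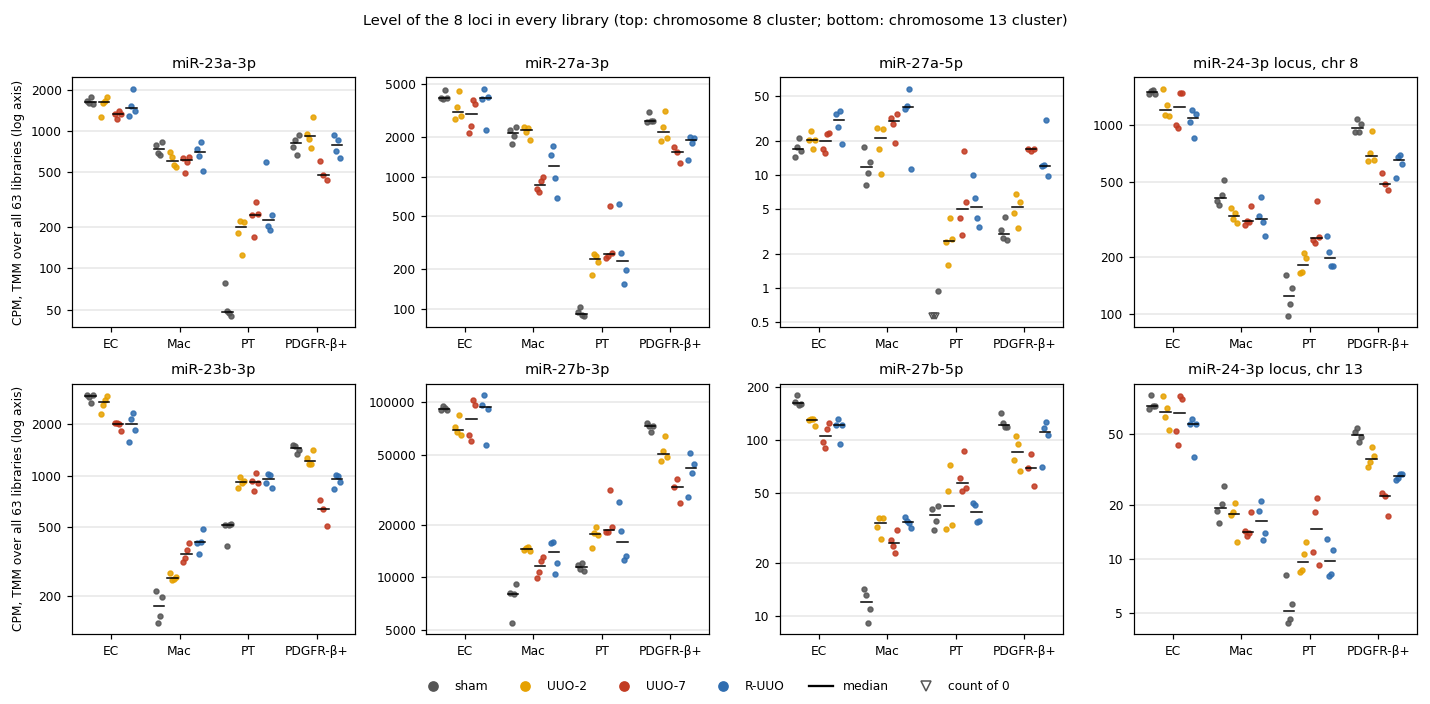
CPM of each of the 8 loci in every library (log axis, TMM scaling over all 63 libraries), by cell type on the x axis and condition by colour; bars are group medians and open triangles mark counts of 0. PT cells were lowest for miR-23a-3p and miR-27a-3p (means 198 and 243 CPM), and Macs for miR-23b-3p and miR-27b-3p (means 300.0 and 11852 CPM), although with library size only miR-27b-3p was not lower in Macs than in PT cells.

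Between ECs and Macs 7 of the 8 loci were called (64.7% of all loci), between ECs and PT cells 8 (68.6%) and between ECs and PDGFR-β+ cells 7 (40.2%), all higher in ECs under TMM, although miR-23a-3p and miR-27a-3p were not higher in ECs than in Macs with library size only. That scaling also ended the calls of miR-24-3p between ECs and Macs (log2 0.52 on chromosome 8 and 0.58 on chromosome 13), and those of miR-27a-3p (0.53) and miR-27b-3p (0.56) between ECs and PDGFR-β+ cells. Between Macs and PT cells 7 were called (62.3%), of which 5 were higher in Macs (both miR-24-3p loci and all of the chromosome 8 members) and 2, miR-23b-3p and miR-27b-5p, were lower. Between Macs and PDGFR-β+ cells 6 were called (68.7%), with miR-27a-5p higher and 5 lower in Macs (miR-24-3p at both loci was not lower with library size only), and between PT and PDGFR-β+ cells 7 (63.2%), all lower in PT cells, of which miR-27b-5p was not called with library size only (-0.51). The calls of miR-27a-5p against PT cells rest on low PT counts near the detection limit. Most miRNAs differed between most of these pairs, and the 8 loci of a pair of clusters are not independent of each other.

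Ratios of 2 members within a library do not depend on the scaling between libraries, and they were used to compare the clusters. miR-23a-3p was 105% to 502% of miR-23b-3p in the 16 Mac libraries (median 208%), 53.0% to 87.9% in ECs (median 63.4%), 50.0% to 113% in PDGFR-β+ cells (median 74.6%) and 8.56% to 65.2% in PT cells (median 21.0%). Every Mac library had a higher count of miR-23a-3p than of miR-23b-3p, and every PT library a lower one. miR-27a-3p was 5.72% to 31.8% of miR-27b-3p in Macs, 3.28% to 5.24% in ECs, 3.40% to 5.18% in PDGFR-β+ cells and 0.736% to 2.32% in PT cells. These strands differ at base 19 alone, so that a read ending before it fits both. The part of such reads in this ratio was not tested, and miR-23a-3p and miR-23b-3p were not compared by sequence. In all 16 mice both ratios were higher in Macs than in PT cells of the same mouse, by 3.52 ± 1.24 (miR-23) and 3.34 ± 1.17 (miR-27) on the log2 scale (SD). By an exact two-sided permutation test within mice each gave p = 3.05e-05, the smallest that 16 mice allow (adjusted p = 9.99e-05 over 36 such tests). ECs and PDGFR-β+ cells differed by -0.02 ± 0.27 for miR-27 (adjusted p = 0.812, exact) and by -0.15 ± 0.27 for miR-23 (adjusted p = 0.0713, exact). Of the 36 tests, made over 6 ratios and 6 pairs of cell types, 27 had an adjusted p under 0.05.

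Ratios were also taken within each cluster. miR-23a-3p was 24.7% to 85.8% of miR-27a-3p in Macs and 33.0% to 89.9% in ECs, and these did not differ by the exact permutation test (log2 difference EC minus Mac -0.03 ± 0.61, adjusted p = 0.866, n = 16 mice), although in Macs the ratio moved with condition, with medians of 35.1% for sham, 29.2% for UUO-2, 65.3% for UUO-7 and 62.9% for R-UUO (exact adjusted p = 0.00130). In PT cells it was 47.3% to 124%, higher than in ECs of the same mouse in all 16 mice (log2 difference EC minus PT -0.81 ± 0.47, exact adjusted p = 9.99e-05). miR-23b-3p was 3.28% to 8.11% of miR-27b-3p in PT cells against 1.64% to 4.54% in ECs, with a log2 difference of -0.77 ± 0.44 (exact adjusted p = 9.99e-05, n = 16). The minor 5p strand was 0.112% to 0.386% of miR-27b-3p in any library, and for miR-27a it ranged from 0 to 5.91%.

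Changes with injury were tested within each cell type over all its libraries, at the same thresholds, and CPM given from here on are scaled within the cell type. Macs showed opposite changes of the paralogous miR-27 3p strands. At UUO-7 miR-27a-3p fell to 0.46-fold of sham while miR-27b-3p rose 1.66-fold, miR-23b-3p 2.24-fold and miR-27b-5p 2.44-fold. The rare miR-27a-5p rose 2.49-fold although its partner strand fell, and miR-23a-3p and miR-24-3p were not called. With its loci summed miR-24-3p passed the FDR but not the fold threshold at UUO-7 (log2 -0.46, edgeR adjusted p = 0.0144) and in R-UUO (-0.49, adjusted p = 0.0120). At the chromosome 8 locus its R-UUO change was -0.33, against -0.61 to -0.36 with 1 Mac library left out, and was called without replicate 2 of R-UUO.

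The level of miR-27a-3p in Macs was 3506, 2754, 3307 and 3489.7 CPM in the 4 sham libraries, 3996, 3949, 4008 and 3533 at UUO-2, 1401, 1345, 1723 and 1516 at UUO-7, and 2390.3, 2697, 1506 and 1179 in R-UUO. All UUO-7 and R-UUO libraries lay below every sham library, and all UUO-2 libraries lay above. The log2 change was 0.25 ± 0.20 (SE) from sham to UUO-2, which was not called (adjusted p = 0.366), -1.37 ± 0.20 from UUO-2 to UUO-7 (adjusted p = 5.37e-05) and -1.13 ± 0.20 from sham to UUO-7 (adjusted p = 0.000143). From UUO-7 to R-UUO it was 0.38 ± 0.20, with overlapping libraries (adjusted p = 0.159), which was called without replicate 5 of R-UUO (0.61, adjusted p = 0.00530), and R-UUO remained below sham (log2 -0.75 ± 0.20, adjusted p = 0.00581). That last call was lost when only the R-UUO and sham libraries were fitted (log2 -0.77, adjusted p = 0.0547).

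miR-23b-3p in Macs had 332, 218, 247 and 287 CPM in sham, 456, 443, 433 and 482 at UUO-2, 553, 578, 687 and 617 at UUO-7, and 674, 559, 634 and 833 in R-UUO. Each injured group lay above sham without overlap, with log2 changes of 0.74 ± 0.15 (adjusted p = 0.000996), 1.17 ± 0.15 (adjusted p = 9.39e-06) and 1.31 ± 0.15 (adjusted p = 2.82e-06). The change at UUO-2 is close to the fold threshold and fell under it when any of 10 of the 16 Mac libraries was left out (log2 0.46 to 0.69 over all 16). The 0.74 with all Mac libraries lay above that whole range.

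miR-27b-3p in Macs had 12672, 8656, 13051 and 13513 CPM in sham, 24303, 26589.9, 25844 and 26608 at UUO-2, 17466, 18951, 23216 and 19898 at UUO-7, and 25926, 25486, 16044 and 20625 in R-UUO. The change from sham was largest at UUO-2, with log2 values from sham of 1.11 ± 0.16, then 0.73 ± 0.16 and 0.88 ± 0.16, and no injured library overlapped sham. The value at UUO-7 with all Mac libraries lay above the whole range from leaving 1 out (log2 0.41 to 0.66 over all 16). It went under the fold threshold when any of 11 of the 16 Mac libraries was left out, when loci of one name were summed (0.54) and in the fit over all 63 libraries (0.58). The 5p strand of the same hairpin, miR-27b-5p, moved with it, from 22.2, 20.6, 15.0 and 16.1 CPM in sham to 54.1, 64.8, 47.8 and 67.3 at UUO-2, with log2 changes of 1.66 ± 0.17, 1.29 ± 0.17 and 1.59 ± 0.17 at UUO-2, UUO-7 and R-UUO.

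miR-27a-5p in Macs had 27.4, 12.6, 16.8 and 19.2 CPM in sham, 43.7, 30.6, 17.7 and 47.2 at UUO-2, 55.9, 48.7, 35.4 and 52.2 at UUO-7, and 63.0, 65.1, 89.1 and 19.0 in R-UUO. All UUO-7 libraries lay above sham (log2 1.31 ± 0.38, adjusted p = 0.00768), and 1 R-UUO library lay among the sham values (log2 1.63 ± 0.38, adjusted p = 0.00212). The UUO-2 change of 0.84 ± 0.37 was not called (adjusted p = 0.0911), except with library size only (0.99, adjusted p = 0.0436). Without replicate 3 of the sham Macs the UUO-7 change was 1.07 with an adjusted p of 0.0501.

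In all, 3 of 8 loci were called higher and none lower in Macs at UUO-2 (27.6% of all loci called), 4 higher and 1 lower at UUO-7 (43.1%), 1 lower from UUO-2 to UUO-7 (30.6%), none from UUO-7 to R-UUO (19.9%), and 4 higher and 1 lower in R-UUO against sham (31.9%). With all Mac libraries no member was called between UUO-7 and R-UUO at an FDR under 0.05 with edgeR, where 0 had an unadjusted p under 0.05 and the smallest was 0.0695, and DESeq2 called none either. The median log2 change of the 8 loci at UUO-7 was 0.28 beside 0.22 over all 457 loci tested. The summed levels of the marker loci of other cell types in these Macs were, from sham to UUO-7, 322 to 3387 CPM and then 605 to 938 CPM for the EC markers, 3509 to 5214 and then 1236 to 2263 for the PT markers, and 1994 to 4986 and then 3144 to 4616 for the PDGFR-β+ markers. The PDGFR-β+ sum was 6781 to 9589.9 CPM in R-UUO, and the Macs' own markers summed to 34894 to 41968 CPM in sham and 17978 to 21212 at UUO-7. The part of these shifts in the Mac changes was not tested.

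The ratio of miR-27a-3p to miR-27b-3p in Macs put these opposite changes on 1 scale. It was 27.7%, 31.8%, 25.3% and 25.8% in sham, 16.4%, 14.9%, 15.5% and 13.3% at UUO-2, 8.02%, 7.09%, 7.42% and 7.62% at UUO-7, and 9.22%, 10.6%, 9.39% and 5.72% in R-UUO. Sham, UUO-2 and the later groups did not overlap, and condition accounted for 93.7% of the sum of squares of the log2 ratio (exact permutation test over mice, p = 6.09e-06, adjusted p = 0.000146 over 24 tests). miR-23a-3p over miR-23b-3p fell in the same order, with medians of 433% for sham, 245% for UUO-2, 161% for UUO-7 and 185% for R-UUO (exact adjusted p = 0.000585). Its numerator was not called at any stage (1091 to 1236 CPM in sham, 876 to 1116 at UUO-7), while its denominator rose. The share of the 5p strand, miR-27a-5p over miR-27a-3p, had medians of 0.529%, 0.934%, 3.53% and 2.52% in the same order of groups (exact adjusted p = 0.00130).

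In PT cells 6 of the 7 loci tested rose at UUO-7 and 3 at UUO-2, and none fell. At UUO-7 miR-23a-3p rose 4.10-fold and miR-27a-3p 3.41-fold, against 1.77-fold for both miR-23b-3p and miR-27b-3p. miR-24-3p rose 2.08-fold at the chromosome 8 locus and 2.48-fold at the chromosome 13 locus.

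miR-23a-3p in PT cells had 93.9, 56.2, 55.9 and 53.7 CPM in sham, 210.0, 254, 144 and 243 at UUO-2, 263, 191, 344 and 268 at UUO-7, and 718, 224, 225 and 272 in R-UUO. No library after injury overlapped sham. The log2 changes from sham were 1.71 ± 0.36 at UUO-2 (adjusted p = 0.00455), 2.04 ± 0.36 at UUO-7 (adjusted p = 0.000373) and 2.47 ± 0.37 in R-UUO (adjusted p = 0.000104), the last being 1.92 without replicate 1 of R-UUO and that at UUO-7 1.86 without replicate 4.

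miR-27a-3p in PT cells had 113, 119, 105 and 105 CPM in sham, 209, 295, 289 and 251 at UUO-2, 259.9, 286, 672 and 287 at UUO-7, and 752, 289, 182 and 220.1 in R-UUO, again without overlap with sham. Its log2 changes were 1.24 ± 0.39 (adjusted p = 0.0333), 1.77 ± 0.40 (adjusted p = 0.00198) and 1.71 ± 0.40 (adjusted p = 0.00308). Leaving out any 1 of the 8 sham and UUO-2 libraries ended the call at UUO-2 (adjusted p up to 0.0808). Without replicate 4 the UUO-7 change was 1.30, and without replicate 1 the R-UUO change was 1.10, both still called.

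miR-23b-3p in PT cells rose from 619, 446, 604 and 628 CPM in sham to 986, 1121, 1044 and 1042 at UUO-2, 994, 918, 1162 and 983 at UUO-7 and 1102, 1135, 1201 and 951 in R-UUO. The groups after injury lay close together and above sham, with log2 changes of 0.87 ± 0.13, 0.82 ± 0.13 and 0.93 ± 0.13 (adjusted p of 0.000556, 0.000200 and 8.14e-05), none of which was called with library size only (0.69, 0.47 and 0.51). Without replicate 4 the UUO-7 change was 0.73. miR-27b-3p had 14151, 12885, 14216 and 13053 CPM in sham and 19340.2, 20477, 35411 and 20958 at UUO-7, a log2 change of 0.82 ± 0.24 (adjusted p = 0.0107) that fell to 0.55 (adjusted p = 0.0769) without replicate 4 of UUO-7. miR-27b-5p was not called at UUO-7 (log2 0.67 ± 0.28, adjusted p = 0.0562), and was 0.44 without replicate 4 of UUO-7 (adjusted p = 0.241). It was called without replicate 1 of R-UUO (0.69, edgeR adjusted p = 0.0387) or 2 of UUO-2 (0.71), with DESeq2 (0.66) and with only the compared conditions (0.67). Summed loci (0.75) and the fit over all 63 libraries (0.77) called it too. The R-UUO change of miR-27b-3p, 0.60 ± 0.24 (edgeR adjusted p = 0.0522), was not called. It was called with DESeq2, summed loci, no filter and the fit over all 63 libraries (0.60 to 0.69), and was 0.32 without replicate 1 of R-UUO. miR-24-3p at the chromosome 8 locus had 193, 112, 132 and 163 CPM in sham and 264, 266, 442 and 276 at UUO-7 (log2 1.06 ± 0.22, adjusted p = 0.000962), and 0.82 without replicate 4 of UUO-7 (adjusted p = 0.00697). Its R-UUO change of 0.68 ± 0.22 was lost without replicate 1 of R-UUO (0.56, adjusted p = 0.0648) or without replicate 2 or 3 of sham (0.52 and 0.59), and with library size only (0.17), while at the chromosome 13 locus the UUO-7 change was 1.31 ± 0.36 (adjusted p = 0.00814), and 1.04 without replicate 4 of UUO-7 (adjusted p = 0.0384).

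miR-27a-5p did not pass the filter on low counts in PT cells and had no test there. Its counts were 0, 0, 0 and 1 in sham, 3, 2, 9 and 3 at UUO-2, 9, 6, 72 and 13 at UUO-7, and 16, 10, 3 and 4 in R-UUO. All sham counts were under the floor of 3, and no fold is given.

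Of the 7 loci tested in PT cells, 3 were called higher at UUO-2 (19.1% of all loci called), 6 higher at UUO-7 (43%), none from UUO-2 to UUO-7 (4.24%), none from UUO-7 to R-UUO (1.52%) and 4 higher in R-UUO against sham (38.8%), with none lower. At an unadjusted p under 0.05 there was 1 locus from UUO-2 to UUO-7 and 1 from UUO-7 to R-UUO, and DESeq2 called none in either. Their median log2 change at UUO-7 was 1.06 beside 0.00 over all 330 loci tested. With scaling by library size only the rises of miR-23b-3p (0.47), miR-27b-3p (0.44) and miR-24-3p of chromosome 13 (0.94) at UUO-7 were no longer called. The members' median lay 1.04 to 1.05 above that of all loci under each of 3 scalings. This gap is no test of the scaling, since a scaling shifts all loci of a library alike. The PDGFR-β+ marker loci summed to 1617 to 3496 CPM in sham PT cells and to 7030.5 to 18215 CPM at UUO-7, the Mac markers to 73.2 to 106 and then 136 to 236 CPM, and the PT cells' own markers fell from 99860.4 to 130314 CPM to 32309 to 53404 CPM. The part of this shift in the members' changes was not tested.

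Within PT libraries miR-27a-3p was 0.801%, 0.923%, 0.736% and 0.806% of miR-27b-3p in sham and 1.23% to 2.32% in all 12 libraries after injury (exact permutation test over conditions, adjusted p = 0.00257, and 0.00229 without replicate 4 of UUO-7). miR-23a-3p over miR-23b-3p had medians of 10.9% for sham, 22.0% for UUO-2, 26.8% for UUO-7 and 24.2% for R-UUO (exact adjusted p = 0.0114), and its sham and UUO-2 libraries overlapped. These ratios thus moved toward the chromosome 8 members in PT cells and toward those of chromosome 13 in Macs.

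In PDGFR-β+ cells 7 of the 8 loci fell at UUO-7 and miR-27a-5p rose. The falls were to 0.42-fold for miR-23b-3p and miR-27b-3p, 0.41-fold for miR-24-3p at the chromosome 13 locus and 0.49-fold at the chromosome 8 locus, 0.53-fold for miR-27a-3p and miR-27b-5p, and 0.60-fold for miR-23a-3p. miR-27a-5p rose 5.00-fold.

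miR-23b-3p in PDGFR-β+ cells had 1102, 1301, 1015 and 1125 CPM in sham, 1096, 939.5, 953 and 1104 at UUO-2, 519, 492 and 407 at UUO-7, and 679, 727, 699.8 and 749.5 in R-UUO. UUO-7 lay below all other groups and R-UUO lay between UUO-7 and sham without overlap with either. The log2 change was -1.26 ± 0.13 at UUO-7 (adjusted p = 1.62e-06) and -0.67 ± 0.12 in R-UUO against sham (adjusted p = 0.000283). From UUO-7 to R-UUO it rose by 0.59 ± 0.13 (adjusted p = 0.0173), the sole member called in that comparison in any cell type in the main edgeR fits. This call was lost without replicate 5 of R-UUO (0.57) or of UUO-7 (0.51, adjusted p = 0.150), without the filter on low counts (adjusted p = 0.0606) and with only the compared conditions (adjusted p = 0.0513). In the same cells and comparison DESeq2 also called miR-23a-3p (0.72, adjusted p = 0.0176) and miR-27b-5p (0.64, adjusted p = 0.0170). With edgeR these had 0.64 (adjusted p = 0.0897) and 0.58 (adjusted p = 0.174), and miR-23a-3p was called without the filter (0.67, adjusted p = 0.0395).

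miR-27b-3p in PDGFR-β+ cells had 55332, 63613, 50984 and 58065 CPM in sham, 39766, 41818, 52476 and 37856 at UUO-2, 23540.4, 27867 and 21179 at UUO-7, and 23464, 36898, 27423 and 36241 in R-UUO. UUO-7 and R-UUO lay below all sham and UUO-2 libraries, with log2 changes from sham of -1.24 ± 0.17 (adjusted p = 2.42e-05) and -0.88 ± 0.15 (adjusted p = 0.000255). The change to UUO-2, -0.41 ± 0.15, was not called (adjusted p = 0.121). miR-27a-3p went from 1882, 2668, 1988 and 2116 CPM in sham to 1219.7, 1183 and 1008 at UUO-7 (log2 -0.93 ± 0.19, adjusted p = 0.00104), and miR-23a-3p from 557, 754, 507 and 749 to 436, 367 and 351 (log2 -0.74 ± 0.20, adjusted p = 0.00636). The R-UUO change of miR-27a-3p, -0.69 ± 0.17, went under the fold threshold without replicate 2 of sham (-0.58).

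miR-27a-5p in PDGFR-β+ cells had 2.38, 2.41, 3.21 and 2.10 CPM in sham, from 6 to 17 counts, 3.95, 5.41, 2.77 and 4.45 at UUO-2, 12.2, 12.3 and 13.5 at UUO-7, from 35 to 65 counts, and 9.64, 8.78, 21.3 and 7.93 in R-UUO. UUO-7 and R-UUO lay above every sham and UUO-2 library, with log2 changes of 2.32 ± 0.40 (adjusted p = 0.000201) and 2.24 ± 0.38 (adjusted p = 0.000190), the latter 1.73 without replicate 4 of R-UUO. As a share of miR-27a-3p in the same library it was 0.0903% to 0.161% in sham, 0.108% to 0.294% at UUO-2, 1.00% to 1.34% at UUO-7 and 0.496% to 1.70% in R-UUO. Averaged on the log2 scale, the share was 9.21-fold higher at UUO-7 than in sham. The conditions differed by the exact permutation test (adjusted p = 0.000585). The mean log2 share was also higher at UUO-7 than in sham in Macs, with a log2 difference of 2.49 (5.62-fold). In ECs the difference was 0.67 (1.60-fold), but there the conditions did not differ by the exact permutation test (adjusted p = 0.124), except without replicate 5 of R-UUO (adjusted p = 0.0396). In PT cells the value depends on the pseudocount, since the sham counts of the 5p strand were 0 or 1, and none is given.

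In PDGFR-β+ cells none of the 8 loci was called at UUO-2 (6.29% of all loci called), 7 were lower and 1 higher at UUO-7 (48.2%), 6 were lower and 1 higher from UUO-2 to UUO-7 (33.8%), 1 was higher from UUO-7 to R-UUO (3.98%), and 5 were lower and 1 higher in R-UUO against sham (41.7%). At UUO-2 edgeR left 3 loci with an unadjusted p under 0.05, and DESeq2 called miR-27b-5p (-0.60). The falls of miR-27a-3p and of miR-24-3p at the chromosome 8 locus from UUO-2 to UUO-7 went under the fold threshold without replicate 3 of UUO-2 (-0.56 and -0.52). The size of the falls depends on the scaling, because the median of all 477 loci rose by 0.50 at UUO-7 under TMM, 1.02 with library size only and 0.27 with DESeq2 size factors. The members' median was -0.98, -0.46 and -1.22 in turn. It lay 1.48 below that of all loci each time, which is no test of the scaling, since a scaling shifts all loci of a library alike. With library size only the falls of miR-23a-3p (-0.21), miR-27a-3p (-0.41), miR-27b-5p (-0.40) and miR-24-3p of chromosome 8 (-0.51) were not called. That scaling also ended all 6 falls from UUO-2 to UUO-7 (log2 -0.56 to -0.11), all 5 in R-UUO against sham (-0.58 to -0.38) and the rise of miR-23b-3p from UUO-7 to R-UUO (0.37), while the rises of miR-27a-5p stayed called. The PDGFR-β+ marker loci fell from 326479 to 398350 CPM in sham to 145413 to 174163 CPM at UUO-7 in these cells, and the Mac markers rose from 53.0 to 171 CPM to 273 to 698 CPM. The EC markers, of the cells with the highest level of most members, went from 2041 to 2588 CPM to 618 to 1586 CPM, and the PT markers from 2083 to 3848 CPM to 1457 to 1652 CPM. The part of these shifts in the members' changes was not tested.

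**Figure D2:**
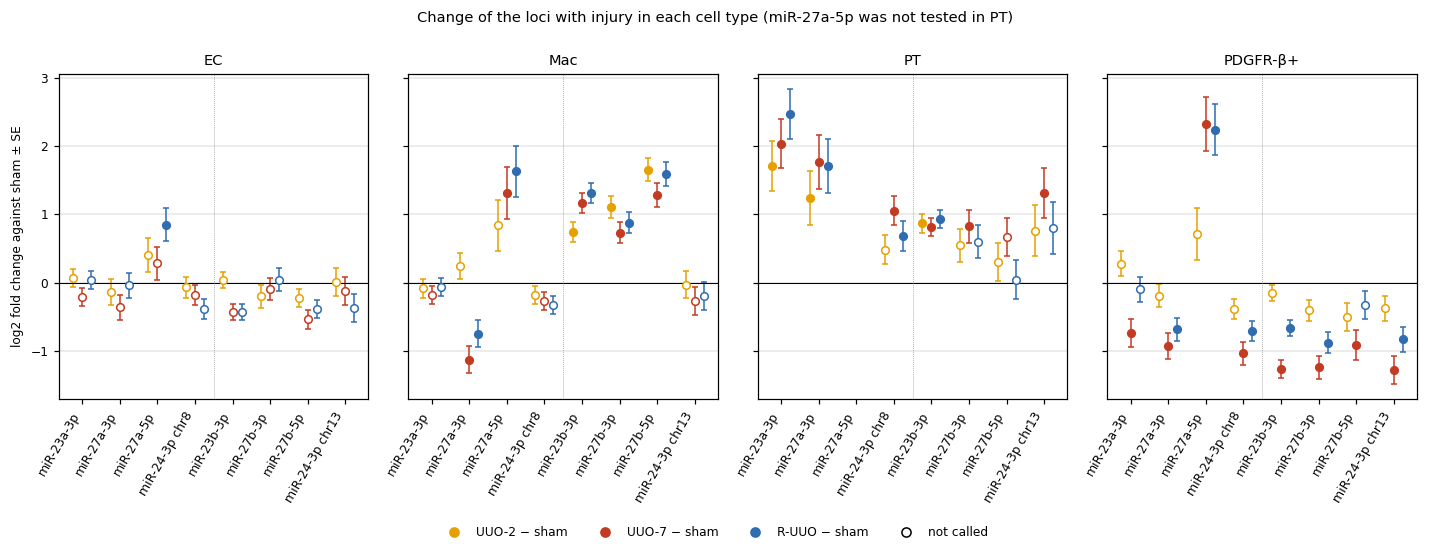
Log2 fold change from sham (± SE) of each locus in each cell type at UUO-2, UUO-7 and R-UUO; filled points were called (FDR under 0.05 and fold over 1.5), and a dotted line parts the chromosome 8 loci (left) from the chromosome 13 loci. In PDGFR-β+ cells 7 loci lay below 0 at UUO-7 and miR-27a-5p at 2.32, in Macs miR-27a-3p lay at -1.13, and in PT cells all tested loci lay above 0. With scaling by library size only 4 of the PDGFR-β+ falls at UUO-7 were no longer called.

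In ECs few changes of the members were called, and which ones depended on the scaling. None of the 8 loci was called at UUO-2 (1.71% of all loci called), at UUO-7 (11.5%), from UUO-2 to UUO-7 (1.92%) or from UUO-7 to R-UUO (1.07%), and 1 was called higher in R-UUO against sham (16.8%). miR-23b-3p had 1772, 1859, 1642 and 1844 CPM in sham and 1422, 1418, 1295 and 1155 at UUO-7, below all sham libraries. Its log2 change of -0.43 ± 0.11 passed the FDR (adjusted p = 0.0184) but not the fold threshold, as did that of miR-27b-5p (-0.54 ± 0.13, adjusted p = 0.0120). With scaling by library size only both were called (-0.59 and -0.71), and in R-UUO against sham miR-23b-3p (-0.78), miR-24-3p of chromosome 8 (-0.69) and miR-27b-5p (-0.70) were called lower. The fit over all 63 libraries also called miR-27b-5p at UUO-7 (-0.63, adjusted p = 0.0395). In the 4 comparisons without a call 0, 2, 3 and 1 loci had an unadjusted p under 0.05 with edgeR, and DESeq2 called none. miR-27b-3p stayed within overlapping ranges, 54380.0 to 61005 CPM in sham and 42161 to 66178 at UUO-7 (log2 -0.09 ± 0.17, adjusted p = 0.781).

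The call in ECs was miR-27a-5p, with 8.70, 11.2, 13.0 and 10.2 CPM in sham and 24.3, 15.8, 25.7 and 12.7 in R-UUO. These libraries overlapped, and the log2 change of 0.85 ± 0.24 (adjusted p = 0.0182) was not called with library size only (0.50), with only the compared conditions (adjusted p = 0.0501) or in the fit over all 63 libraries. It was also not called with the replicate number as a block (0.84, adjusted p = 0.0640), although that number marks different mice across conditions. Replicate 4 of R-UUO had 1429 CPM of miR-23a-3p beside 917 to 948 in the other 3 libraries and 1589 CPM of miR-27a-3p beside 2679 to 2781, and without it the miR-27a-5p change was 0.78 (adjusted p = 0.0313). The miR-23a-3p to miR-23b-3p ratio rose in ECs from a median of 56.2% in sham to 59.7%, 67.9% and 79.1% from UUO-2 through UUO-7 to R-UUO (exact permutation test, adjusted p = 0.00256), and all R-UUO libraries lay above all sham libraries.

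**Figure D3:**
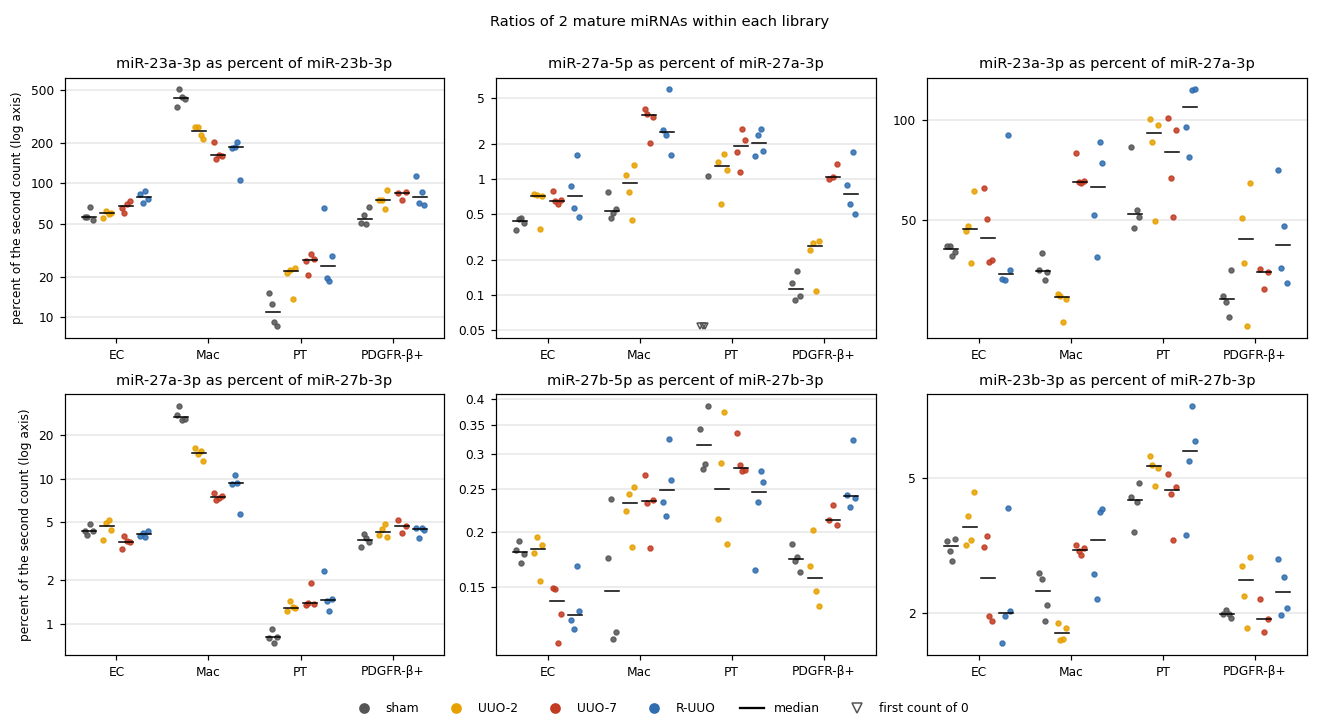
Percent that the first miRNA makes up of the second in each library (log axis), for 6 pairs of members, by cell type and condition; bars are medians and open triangles mark a first count of 0. In Macs the miR-27a-3p to miR-27b-3p ratio fell from a median of 26.7% in sham to 7.52% at UUO-7, and in PDGFR-β+ cells the miR-27a-5p share of miR-27a-3p rose from 0.113% to 1.04%.

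Over the 24 tests of a ratio across conditions (6 ratios in 4 cell types), 14 had an adjusted p under 0.05. In PDGFR-β+ cells the miR-23a-3p to miR-23b-3p ratio was among them (exact adjusted p = 0.0280) but not without replicate 1 or 3 of sham (exact adjusted p of 0.0868 and 0.0896), and in ECs the miR-27a-3p to miR-27b-3p ratio was among them (exact adjusted p = 0.0435) but not without any of 12 of the 16 libraries (adjusted p up to 0.117). The miR-27a-5p share in PT cells (exact adjusted p = 0.0120) rests on 1 count in sham and was lost with a pseudocount of 2 (adjusted p = 0.341). The miR-23b-3p to miR-27b-3p ratio had an exact adjusted p of 0.124 in ECs and 0.255 in PT cells. It passed in ECs without replicate 4 of R-UUO (exact adjusted p = 0.0141) and in PT cells without replicate 1 of R-UUO (exact adjusted p = 0.00902). For a single pair of conditions 4 against 4 mice cannot go below p = 0.0286 in the exact test, which in Macs the fall of the miR-27 ratio from sham to UUO-7 reached (log2 -1.87), and no pair from sham to UUO-7 passed the adjustment (adjusted p of at least 0.0571).

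Whether the changes from sham to UUO-7 differed between cell types was tested in the fit over all 63 libraries. The change in ECs was called different from that in PT cells for all 8 loci, miR-27a-5p among them (16.1% of all loci called). It was called different from that in PDGFR-β+ cells for 5 (27.3%) and from that in Macs for 3 (18.2%). Macs differed from PT cells for 5, again with miR-27a-5p (27.4%), and from PDGFR-β+ cells for 3 (20.4%), and PT from PDGFR-β+ cells for 7 (27%). The difference between Macs and PT cells was -3.13 on the log2 scale for miR-27a-3p and -2.47 for miR-23a-3p, whereas miR-23b-3p, miR-27b-3p and miR-27b-5p were not called different between them, of which DESeq2 (0.67 and 0.93) and library size only (0.83 and 1.13) called miR-23b-3p and miR-27b-5p. Between Macs and PDGFR-β+ cells it was 2.23 for miR-23b-3p, 2.01 for miR-27b-5p and 1.77 for miR-27b-3p, with no other locus called, where DESeq2 also called miR-24-3p at both loci (1.06 on chromosome 13 and 0.83 on chromosome 8). The values that involve miR-27a-5p in PT cells (-4.68 against ECs and -3.69 against Macs) depend on the prior count, since the sham counts there were 0 or 1, and are no bound. Without replicate 4 of the sham PT cells they were -7.72 and -6.72. The calls of this locus against PT cells are therefore not read as a difference.

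The other arms of the same hairpins and the opposite-strand loci, were 8 loci in all, of which 7 were tested in ECs, 6 in Macs and in PDGFR-β+ cells and 4 in PT cells. Overlapping loci on opposite strands had equal or nearly equal counts: miR-24-2-5p matched miR-3074-2-3p, and miR-3074-5p matched miR-24-3p, so that they cannot be read as separate measurements. miR-24-2-5p, of the chromosome 8 cluster, fell in Macs by 1.22 on the log2 scale at UUO-7 (adjusted p = 0.000151) and rose by 1.04 from UUO-7 to R-UUO (adjusted p = 0.00213). In PT cells it rose by 1.64 at UUO-7 (adjusted p = 0.0309) and 2.67 in R-UUO against sham (adjusted p = 0.00240). Its direction from sham to UUO-7 was thus that of miR-27a-3p in both populations. In PDGFR-β+ cells miR-24-2-5p was not called at UUO-7 (log2 0.02, edgeR adjusted p = 0.936), while miR-27a-3p had a log2 change of -0.93. At UUO-7 the loci called were 2 lower in Macs (43.1% of all loci called), 4 lower in PDGFR-β+ cells (48.2%), 4 higher in PT cells (43%) and 0 in ECs (11.5%), where a pair on opposite strands counts as 2, and no opposite-strand or other-arm locus was called at UUO-2 in any cell type.

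Over the 16 group means, which share libraries and scaling, the 3p members of a cluster had similar profiles, which is given as a description. Pearson's r of the log2 CPM was 0.96 between miR-23a-3p and miR-27a-3p, 0.91 between miR-23b-3p and miR-27b-3p and 0.96 between both strands of miR-27b, against 0.63 between miR-27a-3p and miR-27b-3p. Both strands of miR-27a had r = 0.70. Beyond the members, the profile most like that of miR-27a-3p was miR-24-2-5p (r = 0.96), that of miR-23a-3p was miR-338-3p (0.94), that of miR-23b-3p was miR-151-3p (0.95), that of miR-27b-3p was miR-322-3p (0.94) and that of miR-27b-5p was miR-151-5p (0.91). For miR-24-3p it was miR-503-3p at both loci (0.98 on chromosome 8 and 0.97 on chromosome 13), and for miR-27a-5p it was let-7j (0.91).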

How the data were processed

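Small RNA libraries of 4 sorted cell types were available for 16 mice in 4 conditions (63 libraries), and groups and replicate numbers were taken from the sample labels. The authors trimmed reads under a Phred score of 20 (Trim Galore 0.4.1 and cutadapt 1.1 in the submitters' processing notes, which also name FastQC, Bowtie and edgeR), used ShortStack for alignment (GRCm38, miRBase 22), and deposited the raw counts of each mature miRNA locus. The strand counted and the placement of reads with several matches are not given in the sources used here. A column of totals over the libraries was not used, and 0 other per-sample columns were left out.

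The counts were fitted with edgeR 4.0.16 under R 4.3.3. Loci were filtered with filterByExpr (minimum count 10), TMM factors scaled the libraries, and log2 CPM used a prior count of 2. Changes with injury were tested within a cell type and levels over all 63 libraries by edgeR's quasi-likelihood test with Benjamini-Hochberg adjustment over all loci, at an FDR of 0.05 and a fold of 1.5, the thresholds of the study. Ratios of 2 members used a pseudocount of 0.5 and exact two-sided permutation tests over mice in Python 3.11.15 (smallest p 3.81e-07 across conditions), with adjustment over 24 and 36 tests. All members at all loci were named, with their partner arms, seed sharers and the 3 loci of most similar profile. The members and lists were chosen with earlier results of these data known. Each fit was tested on simulated data.

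Depth was 616565 to 10819385 counts, so that PT cells give the least precise values, and the floors cover counting error only, while the 95% CIs of the edgeR fit carry the spread between libraries. No pair of replicates agreed within sampling noise (chi-square per degree of freedom of at least 10.3). Within a condition the same number marks cell types of 1 mouse by design, where deviations had a median r of 0.05 over 93 pairs against -0.02 for other pairs. Across conditions numbers mark different mice. Alternatives were DESeq2 1.42.0, its size factors, library size only, no filter, only the compared conditions, loci of one name summed, the replicate block, a pseudocount of 2 and each library left out, and, added after seeing the data, changes read from the fit over all 63 libraries.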

Additional observations from a re-analysis of the deposited data

Results flagged for a closer look

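In 21 of the 210 groups of 4 tested for each locus and ratio, 1 library lay outside the others by Dixon's test, which is 10% where chance gives about 1 in 20. Replicate 4 of the ECs in R-UUO was highest for miR-23a-3p (1429 CPM, the others 917 to 948), lowest for miR-27a-3p (1589 CPM) and highest for the ratios miR-23a-3p to miR-27a-3p (89.9%) and miR-23b-3p to miR-27b-3p (4.07%). Replicate 4 of the PT cells at UUO-7 was highest for miR-27a-3p (672 CPM), miR-27b-3p (35411 CPM), miR-24-3p on chromosome 8 (442 CPM) and miR-27a-3p to miR-27b-3p (1.90%). For miR-23a-3p, replicate 1 of the PT cells was highest in R-UUO (718 CPM) and in sham (93.9 CPM), which are different mice.

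Single libraries also lay apart for miR-27a-3p in Macs at UUO-2 (replicate 4, lowest, 3533 CPM), for miR-27a-5p in PDGFR-β+ cells in R-UUO (replicate 4, highest, 21.3 CPM) and in sham PT cells (replicate 4, highest, 1.12 CPM, from 1 count), for miR-23b-3p in sham PT cells (replicate 2, lowest, 446 CPM) and for miR-27b-5p in PDGFR-β+ cells in R-UUO (replicate 1, lowest, 57.0 CPM) and in sham ECs (replicate 2, highest, 116 CPM). Among the strand ratios, miR-27a-5p was lowest as a share of miR-27a-3p in replicate 3 of the ECs at UUO-2 (0.375%) and highest in replicate 4 of the sham PT cells (1.06%). miR-27b-5p was highest as a share of miR-27b-3p in replicate 4 of the PDGFR-β+ cells in R-UUO (0.324%) and in replicate 2 of the PT cells at UUO-7 (0.335%). In Macs at UUO-7 replicate 2 was highest for miR-23a-3p to miR-27a-3p (79.6%).

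The change from sham to UUO-7 differed between cell types in 31 tests of the difference (edgeR's quasi-likelihood test with Benjamini-Hochberg adjustment, 63 libraries, values as log2 of the first cell type's change minus the second's). For ECs against PT cells the values were -2.45 for miR-23a-3p, -2.31 for miR-27a-3p, -4.68 for miR-27a-5p, -1.46 for miR-23b-3p, -1.10 for miR-27b-3p, -1.40 for miR-27b-5p, and -1.62 and -1.43 for miR-24-3p on chromosomes 13 and 8. For ECs against PDGFR-β+ cells they were -2.17 for miR-27a-5p, 0.67 for miR-23b-3p, 1.00 for miR-27b-3p, and 1.01 and 0.71 for miR-24-3p on chromosomes 13 and 8. For ECs against Macs they were -1.56 for miR-23b-3p, -0.77 for miR-27b-3p and -1.79 for miR-27b-5p. For Macs against PT cells they were -2.47 for miR-23a-3p, -3.13 for miR-27a-3p, -3.69 for miR-27a-5p, and -1.83 and -1.57 for miR-24-3p on chromosomes 13 and 8. The values of miR-27a-5p against PT cells depend on the prior count and are no bound. For Macs against PDGFR-β+ cells they were 2.23 for miR-23b-3p, 1.77 for miR-27b-3p and 2.01 for miR-27b-5p. For PT against PDGFR-β+ cells they were 2.81 for miR-23a-3p, 2.73 for miR-27a-3p, 2.13 for miR-23b-3p, 2.10 for miR-27b-3p, 1.63 for miR-27b-5p, and 2.64 and 2.13 for miR-24-3p on chromosomes 13 and 8.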

How the results depend on the processing

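With library size only, calls were 2 against 8 for UUO-7 against UUO-2, 0 against 1 for R-UUO against UUO-7, 4 against 7 for EC against Mac levels and 1 against 5 for the difference of changes between ECs and PDGFR-β+ cells. The same scaling changed the sign of the level difference EC minus Mac of miR-23a-3p (-0.12) and miR-27a-3p (-0.0773), and Mac minus PDGFR-β+ of miR-23a-3p (0.89), miR-27a-3p (0.61) and miR-24-3p on chromosome 8 (0.0879) and chromosome 13 (0.15). Of these, the EC minus Mac values (edgeR adjusted p of 0.141 and 0.539) and those of miR-24-3p (0.399 and 0.275) did not pass the FDR. R-UUO against UUO-7 gave 3 calls with DESeq2, 0 with only the compared conditions and 2 in the fit over all 63 libraries. The difference of changes gave 2 calls between ECs and PDGFR-β+ cells without the filter, and 5 against 3 between Macs and PDGFR-β+ cells with DESeq2. Counts at UUO-7 against sham were 19 over the 4 cell types and 14 to 21 under these alternatives. Other causes were not tested. Of the values under alternatives other than a left-out library, 1615 stayed on their side of the threshold, called or not, 59 lost a call and 35 gained one. A further 6 changed sign with a call before or after. Changes of sign where neither value was called are among the 1615 and were not counted apart. With the replicate number as a block 250 values stayed on their side of the threshold, and 1 call, miR-27a-5p in ECs (R-UUO against sham, 0.84, adjusted p = 0.0640), was lost. Within a cell type this block joins different mice, and between cell types the block was the mouse. Leaving out each library in turn gave 5 to 6 calls for UUO-2 against sham, 17 to 20 for UUO-7 against sham, 6 to 8 for UUO-7 against UUO-2, 0 to 2 for R-UUO against UUO-7 and 15 to 17 for R-UUO against sham. For differences of changes it gave 2 to 3 calls between ECs and Macs (miR-27b-3p lost in 12 of 63), 4 to 5 between ECs and PDGFR-β+ cells (miR-24-3p on chromosome 8 lost in 22), 3 to 5 between Macs and PDGFR-β+ cells and 7 to 8 between PT and PDGFR-β+ cells, and 13 to 16 and 26 to 27 for the ratios over conditions and between cell types. Depth limits miR-27a-5p in PT cells, whose level difference to ECs moved from 3.11 to 3.87 without replicate 4 of sham, the sole sham library with a count.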
